A study of Homo sapiens with 8 samples.

Results

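CSMD1, CSMD2, CSMD3, SEZ6, SEZ6L and SEZ6L2 are a family of neuronal membrane genes, and their transcripts were followed in D283-OMO cells with and without induction of OMOMYC, a small dominant-negative protein that competes with MYC. The rows of these 6 genes, of 60668 in the count files, were found by matching Ensembl identifiers to the 6 symbols. The family was chosen by name, but with the measured difference between the groups known: CSMD1 had been seen to go from no counts to a clear signal with DOX. For that reason, each member's own difference is given as a description without a test. D283 Med is an established MYC-amplified medulloblastoma line. It had been transduced with a lentivirus that makes FLAG-tagged OMOMYC when doxycycline (DOX) is present, and cells carrying the transgene were selected with hygromycin. All 8 libraries came from these transduced cells: the 4 OMO libraries from untreated cells and the 4 OMO+DOX libraries from cells given 0.25 µg/mL DOX for 72 h. Transduced cells without DOX are thus the control, no DOX-treated parental cells were analysed here, and an effect of DOX itself cannot be told apart from that of OMOMYC.

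The 6 proteins have a long extracellular part built from CUB domains and sushi domains, the latter also called complement control protein repeats because complement regulators are made of them. CSMD1 restrains complement and is often lost in epithelial cancers, CSMD2 is a synaptic protein that supports dendritic spines, and CSMD3 takes part in dendrite branching. SEZ6, SEZ6L and SEZ6L2 are smaller neuronal proteins that shape dendrites and synapses, and the protease BACE1 cuts SEZ6 and SEZ6L off the neuronal surface.

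Members of the family resemble each other in domains but little in letters, which matters for reads of 100 nucleotides that have to be assigned to 1 gene. Over the 15 pairs of members, the longest identical run between any of their annotated transcripts was 13 to 32 nucleotides, well short of a read. The estimated counts of all 6 genes were whole numbers in every library, as they are when no read is divided between genes.

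The libraries held 46592947 to 54020506 counts in the OMO group and 38390696 to 49249167 in the OMO+DOX group. Levels are given as CPM, counts scaled to library size with TMM factors, which allow for a few genes taking up many reads. A count of 0 allows up to 3 counts in a library, or 0.0579 to 0.0746 CPM. This floor covers counting error only. Of the 6 genes, 3 passed the filter of a CPM above 1 in 4 or more libraries, namely CSMD1, SEZ6 and SEZ6L2, and CSMD1 passed it through the OMO+DOX libraries alone. Differentially expressed means a false discovery rate (FDR) under 0.001 and an absolute log2 fold change above 2, and other genes are said to have risen or fallen at an FDR under 0.05. Sorted by these limits, as a description only, CSMD1 was higher with DOX by the first measure, as were 4.38% of the 15222 genes tested, and SEZ6 was lower, as were 2.75%. SEZ6L2 was lower by the second measure, with 38.1% of genes lower and 38.5% higher. The groups did not overlap in CSMD1, SEZ6 or SEZ6L2, nor in 71.7% of all genes tested. Because this contrast chose the family, nothing is read from these counts.

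SEZ6 was the member that lost most transcript. SEZ6 (ENSG00000063015.20) lies on chromosome 17, from 28954901 to 29006440 on the minus strand, and its longest transcript has 17 exons. It had 5100, 4982, 5010 and 4363 counts in the OMO libraries and 582, 469, 587 and 564 in the OMO+DOX libraries. At 104, 96.2, 102 and 97.5 CPM against 11.4, 11.7, 11.4 and 12.4 CPM, the treated libraries were close to each other and far under every untreated one. The mean went from 99.8 ± 3.54 CPM (SD, n = 4) to 11.7 ± 0.446 CPM (SD, n = 4), a log2 fold change of -3.09 ± 0.05 (SE) or an 8.50-fold lower level.

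SEZ6L2, the other member read often in untreated cells, differed far less between the groups. SEZ6L2 (ENSG00000174938.14) lies on chromosome 16, from 29871159 to 29899547 on the minus strand, also with 17 exons in its longest transcript. Its counts were 4020, 4246, 4513 and 3763 in the OMO libraries and 3369, 2346, 3490 and 3208 in the OMO+DOX libraries. In CPM these were 81.8, 82.0, 91.5 and 84.1 against 66.3, 58.3, 68.1 and 70.5. The highest treated library stayed under the lowest untreated one. The mean was 84.9 ± 4.56 CPM without and 65.8 ± 5.26 CPM with DOX (SD, n = 4 each), a log2 fold change of -0.37 ± 0.06 (SE), and this difference was -0.24 when libraries were scaled by their totals alone.

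SEZ6L, the remaining gene of the SEZ6 branch, was not detectable at this depth in either group. SEZ6L (ENSG00000100095.19, chromosome 22, 26169474 to 26383597, plus strand) had 0 counts in each OMO library and 2, 0, 1 and 2 counts in the OMO+DOX libraries. All of these are within the 3 counts that a 0 allows, so no fold is given.

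CSMD1 changed in the opposite direction to SEZ6, from none to a readily measured level. CSMD1 (ENSG00000183117.19) covers 2059620 bp of chromosome 8, from 2935353 to 4994972 on the minus strand, and its longest transcript joins 68 exons. No read was counted in any of the 4 OMO libraries, whereas the OMO+DOX libraries had 2412, 1744, 2174 and 1923 counts. These were 47.4, 43.4, 42.4 and 42.2 CPM, a mean of 43.9 ± 2.44 CPM (SD, n = 4). Against the 3 counts that a 0 allows in the shallowest untreated library, the level with DOX was at least 653.9-fold higher, or 9.35 on the log2 scale. A bulk library does not tell whether few cells with much of a transcript or many cells with little gave these counts, here or for any other gene.

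CSMD3 was also higher with DOX, but near the limit of detection. CSMD3 (ENSG00000164796.18, chromosome 8, 112222928 to 113437099, minus strand) had 0, 9, 2 and 2 counts in the OMO libraries and 44, 27, 35 and 26 in the OMO+DOX libraries. The lowest treated library was above the highest untreated one, untreated replicate 2. In all there were 13 counts without and 132 with DOX, a ratio of 10.5 after scaling to library size. Its 95% exact counting interval was 5.95 to 20.3. That interval pools the libraries of a group and covers counting error, not the spread between libraries. It is given as a description and not as a test of the difference. Untreated replicate 2 held 9 of the 13 counts, and without it the ratio was 25.1 (9.59 to 93.7). At 0.0648 ± 0.0754 and 0.698 ± 0.123 CPM (SD, n = 4 each) the gene stayed under the filter and was not part of the fit.

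CSMD2 (ENSG00000121904.17, chromosome 1, 33513999 to 34165842, minus strand) had 0 counts in every OMO library and 1 count in every OMO+DOX library. Both groups were at or under 3 counts, so CSMD2 was not detectable at this depth.

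**Figure D1:**
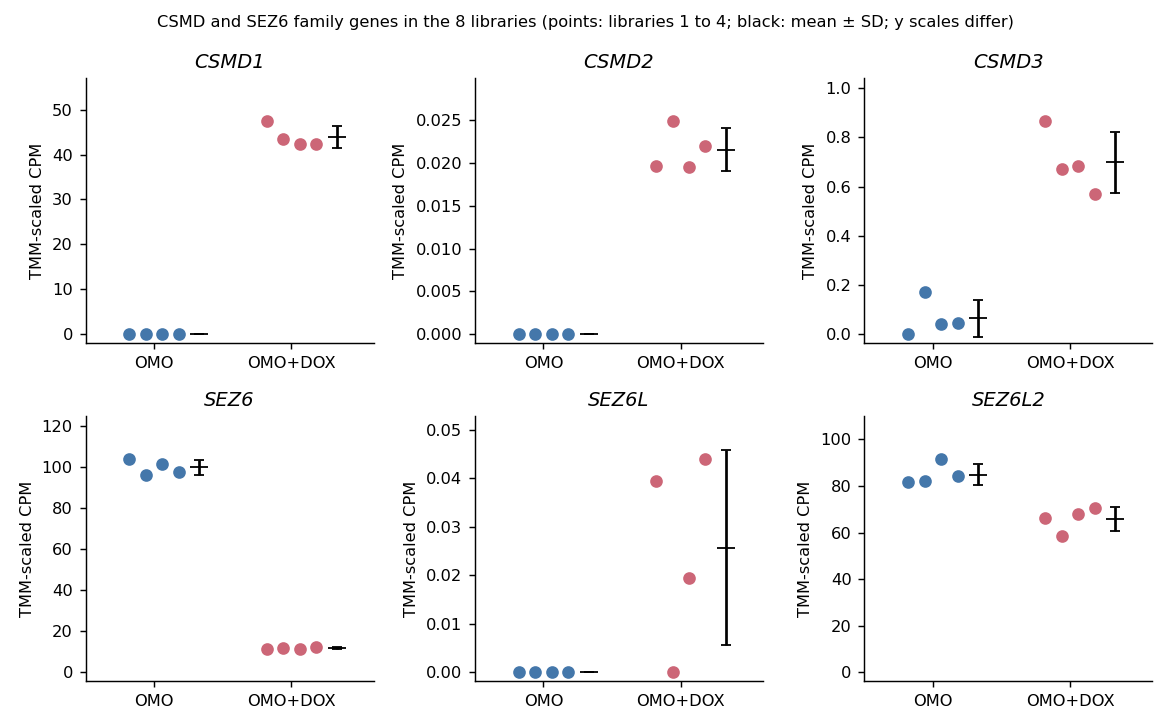
Level of each of the 6 genes in the 4 OMO and 4 OMO+DOX libraries, as TMM-scaled CPM on linear y axes that differ between panels; points are libraries and the black marks show the mean ± SD. CSMD1 appears from 0 to 43.9 CPM, SEZ6 drops from 99.8 to 11.7 CPM and SEZ6L2 goes from 84.9 to 65.8 CPM, while CSMD2 and SEZ6L show at most 1 and 2 counts per library.

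Levels of different genes can be compared only per length, here as CPM per kb of the gene's merged exons. In untreated cells SEZ6 and SEZ6L2 stood nearly level, at 19.5 ± 0.692 and 20.6 ± 1.11 CPM per kb (SD, n = 4 each), and made up 48.6% and 51.4% of the family's summed level. The gap between their means was close to the SD of SEZ6L2, and it vanished when the longest transcript stood for the gene, at 22.3 CPM per kb for both. In the ranking of 15116 tested genes with a known length, SEZ6 was in place 2056 and SEZ6L2 in place 1930, well above the median of 4.50 CPM per kb.

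With DOX the balance within the family was different. SEZ6L2 held 77.4% of the family's level at 16.0 ± 1.28 CPM per kb, while CSMD1, at 2.34 ± 0.130, and SEZ6, at 2.29 ± 0.0872 CPM per kb, stood side by side with 11.3% and 11.1% (SD, n = 4 each). CSMD1 and SEZ6 did not differ beyond their spread on this scale. With the longest transcript as the length, CSMD1 was at 3.25 ± 0.181 and SEZ6 at 2.62 ± 0.0998 CPM per kb, so the gap between this pair depends on which exons are counted. CSMD1 and SEZ6 then ranked at places 10188 and 10267 of 15116, below the median of 4.59, and SEZ6L2 at place 2462. CSMD3 was at 0.0339 CPM per kb, far under the other 3. Summed over the 6 genes, the level was 40.2 ± 1.44 CPM per kb without and 20.7 ± 1.30 CPM per kb with DOX (SD, n = 4 each).

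**Figure D2:**
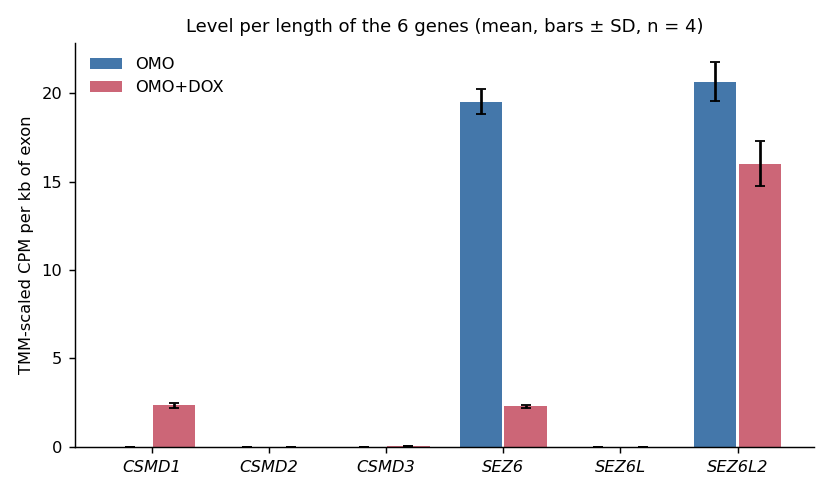
Mean level per length of the 6 genes in TMM-scaled CPM per kb of exon, with bars starting at 0 and error bars of ± SD over 4 libraries per group. SEZ6 and SEZ6L2 are alike in OMO (19.5 and 20.6), SEZ6L2 leads in OMO+DOX (16.0) and CSMD1 and SEZ6 are alike there (2.34 and 2.29).

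SEZ6 family proteins are known to bind glutamate receptors and other synaptic proteins, and 4 of 5 such partners listed for this work were tested. GRIK2, a kainate receptor subunit, was at 5.39, 5.66, 4.89 and 5.75 CPM in the OMO libraries and at 15.3, 15.4, 14.8 and 13.9 CPM in the OMO+DOX libraries. GRIK2 rose, with a log2 fold change of 1.45 ± 0.07 (SE) and an edgeR quasi-likelihood FDR after Benjamini-Hochberg adjustment of 3.67e-09. GRIK3, the related kainate subunit, was at 32.6, 32.5, 26.0 and 32.9 CPM without and at 6.73, 6.41, 5.85 and 6.81 CPM with DOX. GRIK3 was differentially expressed, with a log2 fold change of -2.27 ± 0.09 (SE, edgeR FDR 5.82e-10). These 2 kainate subunits, which SEZ6 binds and helps to reach the surface in neurons, thus moved apart. ADD1, an adducin of the membrane skeleton that binds SEZ6L2, rose by 0.34 ± 0.04 (log2, SE; edgeR FDR 8.53e-06). CTSD, the lysosomal protease cathepsin D, did not pass (0.15 ± 0.07, edgeR FDR 0.0622). GRIA1, an AMPA receptor subunit, was at 0.617 ± 0.162 and 0.251 ± 0.0971 CPM (SD, n = 4 each) and was not tested.

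BACE1, the protease that sheds SEZ6 and SEZ6L, was itself slightly lower with DOX, at a log2 fold change of -0.36 (74.6 to 58.2 CPM, edgeR FDR 5.49e-05). On the list of 18 genes for BACE1, related proteases and their known substrates, 16 were tested, of which 9 rose, 4 fell and 3 did not pass. The median log2 fold change of the list was 0.54, beside 0.01 for all genes tested. Of all genes tested, 38.5% rose, 38.1% fell and 4.38% were differentially expressed and higher. CHL1, a neural adhesion molecule and BACE1 substrate, rose from 0.103 ± 0.0436 CPM to a mean of 4.40 ± 0.392 CPM (SD, n = 4 each; log2 fold change 5.38 ± 0.20 SE, edgeR FDR 4.69e-10). NRG1, a growth factor precursor shed by BACE1, rose by 2.46 and APH1B, a γ-secretase subunit, by 2.04 on the log2 scale. These 3 were the list's differentially expressed genes. CHL1 and APH1B passed the filter through the OMO+DOX libraries alone. With a CPM above 1 required in more than 4 libraries, 1 list gene was differentially expressed and higher. APH1B was just past the fold limit and no longer counted without untreated replicate 1 (1.96), untreated replicate 4 (1.94) or treated replicate 1 (1.98), or with a prior count of 1 (1.98), which left 2 genes. BACE2, the relative of BACE1, fell by 1.56, from 58.4 to 19.8 CPM, and APH1A, the more abundant alternative to APH1B, fell by 0.42 (log2).

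Sushi domains are shared with many secreted and membrane proteins. Of 45 other sushi domain genes, 18 were tested, while 15 had at most 3 counts in every library. Among those tested, 11 rose, 4 fell and 3 did not pass, with a median of 0.61 (log2). The shares over all genes tested were 38.5% higher and 38.1% lower. SELE, the endothelial adhesion receptor E-selectin, rose from 0.0986 ± 0.0484 to 1.07 ± 0.0834 CPM (SD, n = 4 each; log2 fold change 3.43 ± 0.25 SE, edgeR FDR 1.54e-07). CD55, which speeds the decay of complement convertases, rose from 1.07 to 4.79 CPM (log2 fold change 2.17). Both were among the 4 of the list that were differentially expressed, all of them higher, as were 4.38% of all genes tested. SELE passed the filter through the OMO+DOX libraries alone. With a CPM above 1 required in more than 4 libraries, 1 sushi gene was differentially expressed and higher. NCAN, a brain proteoglycan, fell by 1.75 and PAPPA2, a protease of IGF-binding proteins, fell by 1.68 on the log2 scale.

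CUB domains, the other building block of the family, gave a similar count. Of 43 other CUB domain genes, 27 were tested, 17 rose, 8 fell and 2 did not pass, with a median of 0.57 (log2). Again, 38.5% of all genes tested rose and 38.1% fell. ATRNL1, an attractin-like membrane protein, rose from 9.01 ± 0.300 to 183 ± 11.3 CPM (SD, n = 4 each; log2 fold change 4.35 ± 0.06 SE, edgeR FDR 2.21e-13). NRP2, a receptor for semaphorins, rose by 3.96, whereas its relative NRP1 fell by 1.09. NETO1, an auxiliary subunit of kainate receptors, rose by 2.61 to 14.6 CPM, and MFRP, a membrane frizzled-related protein of the eye, by 2.42 to 19.6 CPM. These 4 that rose were differentially expressed, as were 4.38% of all genes tested in that direction. KREMEN2, a DKK receptor of the WNT pathway, fell by 1.71 (log2).

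Complement genes, which CSMD1 is known to act on as proteins, were listed as 38, of which 18 were tested, 8 rose, 8 fell and 2 did not pass. Their median was -0.23 (log2), beside 0.01 for all genes tested, of which 38.5% rose and 38.1% fell. Beside CD55, the differentially expressed genes were ITGAX, a complement receptor subunit, from 0.109 to 11.9 CPM (log2 fold change 6.75), CFI, the protease that inactivates C3b, from 0.365 to 12.8 CPM (5.10), and VTN, vitronectin, which fell by 3.14 from 7.51 to 0.852 CPM. Each passed with an edgeR quasi-likelihood FDR of 6.10e-09 or less. Over all genes tested, 4.38% were differentially expressed and higher and 2.75% lower. ITGAX and CFI passed the filter through the OMO+DOX libraries alone. C5AR1, the C5a receptor, fell by 1.47. C3, the central component, was lower, at 120 against 51.0 CPM (edgeR FDR 3.14e-09), and C1QA, C1QB and C1QC of the initiating complex had at most 1 count in any library. C1R, C1S, MASP2, CD46 and CD55 stand on more than 1 list. The counts over lists are descriptions of these genes, not tests of a pathway.

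**Figure D3:**
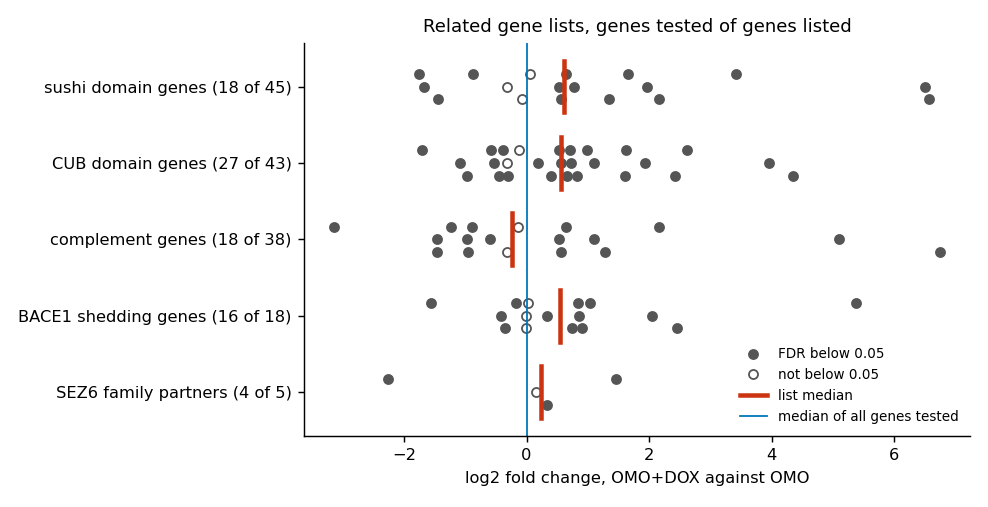
Log2 fold change of every tested gene on 5 lists of related genes; filled points passed an FDR of 0.05, red bars are list medians and the blue line is the median of all genes tested. Sushi, CUB and BACE1 genes have medians of 0.61, 0.57 and 0.54, complement genes of -0.23, and each list has points on both sides of 0.

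The genes next to the family on the chromosomes did not share 1 direction. Beside CSMD1, MYOM2, a sarcomere protein gene 769.801 kb away, went from 0.733, 0.560, 0.568 and 0.648 CPM to 5.94, 6.21, 6.96 and 6.04 CPM (log2 fold change 3.32 ± 0.12 SE, edgeR FDR 2.72e-10) and was differentially expressed. On the other side of CSMD1, MCPH1, a gene for chromosome condensation, rose by 0.62. Of the 5 noncoding genes overlapping CSMD1, none passed the filter, and 4 of them had at most 3 counts in every library.

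The nearest coding gene on either side of SEZ6 did not pass the test. PHF12, 3.130 kb away, was at 90.7 and 93.8 CPM (log2 fold change 0.05, edgeR FDR 0.362), and MYO18A on the far side was at 116 and 114 CPM (-0.02, edgeR FDR 0.712). DHRS13, the second gene on the side of PHF12, fell by 0.57 from 18.9 to 12.7 CPM (log2, edgeR FDR 0.00121). PIPOX, whose span on the other strand takes in the whole of SEZ6 with 0 exon nucleotides in common, rose from 5.76 to 8.54 CPM (log2 fold change 0.57, edgeR FDR 5.31e-05). SEZ6L2 lies between CDIPT, which fell by 0.48, and ASPHD1, 0.828 kb from it, which fell by 1.36 from 11.2 to 4.38 CPM (log2). The gene after ASPHD1, KCTD13, rose from 10.7 to 30.8 CPM (log2 fold change 1.52, edgeR FDR 1.60e-10). MVP, the gene after CDIPT on the other side, fell from 66.1 to 29.3 CPM (log2 fold change -1.18, edgeR FDR 1.90e-08).

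Next to the members with few or no reads, values went both ways. SYBU, the second gene on the lower side of CSMD3 and 2531 kb from it, is a partner of kinesin in axonal transport. SYBU fell from 20.9 ± 0.636 to 2.47 ± 0.302 CPM (SD, n = 4 each). Its log2 fold change was -3.07 ± 0.08 (SE, edgeR FDR 2.57e-11), and it was differentially expressed. KCNV1, the nearest coding gene on that side at 2247 kb, was at 0.565 CPM without and 1.02 CPM with DOX and was not tested. TRPS1, on the other side of CSMD3 at 1971 kb, rose by 1.26 (log2). ZSCAN20 beside CSMD2 rose by 1.18, and C1orf94, 1.041 kb from it, had 0 counts throughout. ASPHD2 beside SEZ6L fell by 0.28 (log2).

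**Figure D4:**
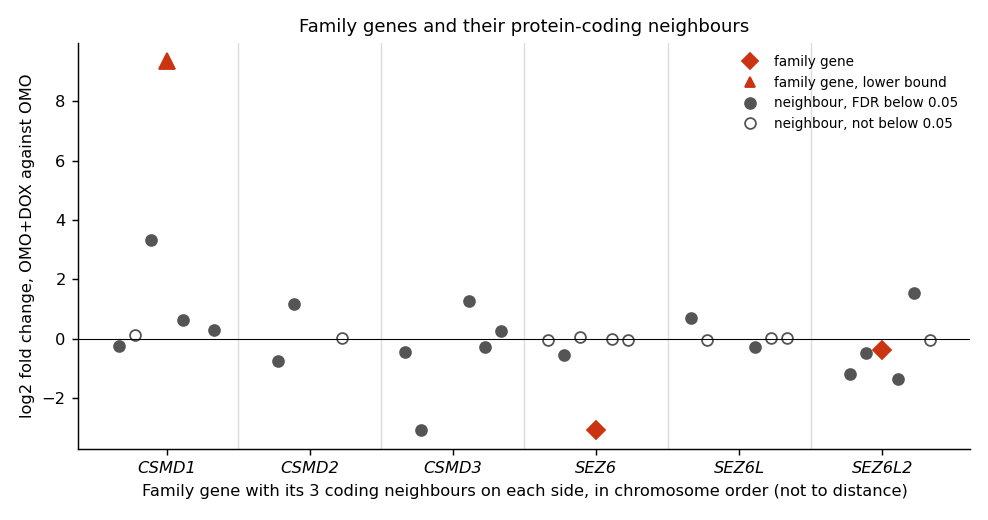
Log2 fold change (OMO+DOX against OMO) of the family genes with a value (red diamonds; triangle, lower bound for CSMD1) and of up to 3 protein-coding neighbours on each side (circles, filled at an FDR under 0.05), in chromosome order but not to distance. CSMD1 at 9.35 or more and SEZ6 at -3.09 lie outside their neighbours' values, while SEZ6L2 at -0.37 lies among its own.

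Over the 8 libraries, the profiles most like that of CSMD1 (Pearson r of log2 CPM) were those of GRIA3, an AMPA receptor subunit, the cytokine receptor IL23R and the antisense RNA AP001626.1, each with 0 counts in every OMO library and r of 0.99995 or more. GRIA3 was at 164 ± 3.07 CPM with DOX (SD, n = 4). For SEZ6 they were ART3, ZDHHC22, a palmitoyltransferase gene, and PITPNA, a phosphatidylinositol transfer protein gene, with r of 0.99981, 0.99978 and 0.99969. For SEZ6L2 they were P2RY11, SCRIB, a cell polarity gene, and SRM, spermidine synthase, with r of 0.99852, 0.99783 and 0.99714. With 2 groups this far apart r is high for many genes, over 0.99 for 1071 genes with CSMD1, 1051 with SEZ6 and 36 with SEZ6L2, and it is a description of the same 8 libraries.

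Markers of cell types moved with the groups as well, and their part in the values above was not tested. As a background, 38.5% of all genes tested rose and 38.1% fell. The summed level of 15 neuronal genes, 12 of them over the filter, was 762 to 808 CPM without and 1136 to 1176 CPM with DOX, with 7 genes that rose, 4 that fell, and ELAVL4 and GAP43 at or under 3 counts. That of 9 genes of group 3 medulloblastoma and photoreceptors, 8 over the filter, was 2207 to 2420 and 720 to 739 CPM, with 7 that fell and 1 that rose. For 8 astrocyte and oligodendrocyte genes it was 985 to 1097 and 116 to 125 CPM, with 2 genes over the filter, both of which fell. The 5 microglia and leukocyte genes summed to 0.560 to 0.852 CPM without and 0.761 to 0.994 CPM with DOX, most of it from CSF1R, with TYROBP at or under 3 counts and none over the filter. For 6 fibroblast and endothelium genes, 4 over the filter, the sums were 38.1 to 39.7 and 57.7 to 71.7 CPM, with 2 that rose, 1 that fell and PECAM1 at or under 3 counts. MYC, whose reads include any from the OMOMYC transgene that align to it, was at 937 ± 75.5 and 1120 ± 56.6 CPM (SD, n = 4 each; log2 fold change 0.26, edgeR FDR 0.00237).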

How the data were processed

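PolyA+ RNA of 4 untreated and 4 DOX-treated D283-OMO cultures, described by the study as independent replicates, was sequenced with a stranded kit as paired reads of 100 nucleotides. After trimming (Trim Galore) and STAR alignment to GRCh38 with GENCODE 32, the authors deposited RSEM expected counts per gene and library; whether RSEM used strand is not given in the sources used here. The expected counts were rounded, and the 15222 genes above 1 CPM in 4 or more of the 8 libraries were fitted with edgeR 4.0.16 (TMM, quasi-likelihood test, Benjamini-Hochberg over all genes tested) on R 4.3.3. DESeq2 1.42.0, other scalings, filters and prior counts, a replicate block and each library left out were alternatives. Symbols were matched for 58629 of 60668 identifiers, and coordinates and lengths come from GENCODE 29 on GRCh38, a different release from that of the counts. A bound against 0 uses 3 counts in the shallowest library of the group. The members and lists were chosen with earlier results of these data known.

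Genes are named by rule: members, MYC, differentially expressed list genes and the 2 highest and 2 lowest of each list, adjacent or differentially expressed neighbours, and the 3 profiles most like each member. Some items that this rule names are not reported here. BACE1, C3, the C1Q genes, CSF1R, KCTD13, MVP and DHRS13 were named outside this rule, after their values were seen. Replicate numbers were not taken to pair the libraries. Deviations of same-numbered libraries correlated at -0.176 to 0.241, and those of other-numbered libraries at -0.29 to 0.346. With 4 libraries per group this shows no pairing and cannot exclude one. In simulated counts for 15222 genes, 200 were changed, none of them low in counts, with the same spread for every gene. Every fit found 100 of 100 genes changed by 3 and 100 of 100 changed by 1 (log2). At an FDR under 0.05 the fits also called 6 to 13 unchanged genes. The simulation does not cover changed genes with few counts, and far more genes passed in the real data.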

Additional observations from a re-analysis of the deposited data

Results flagged for a closer look

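In 8 of 97 groups of 4 libraries checked, 1 library stood apart from the other 3 by Dixon's test, where chance gives about 4.9. None of these was a CSMD or SEZ6 family gene. In untreated replicate 3, GRIK3 was at 26 CPM (others 32.5 to 32.9), TRPS1 at 35.3 (49 to 51), SCRIB at 148 (134 to 135) and SRM at 61.3 (50.8 to 52.3). In treated replicate 2, MFRP was at 17.9 CPM (20.1 to 20.2) and ADD1 at 220 (229 in each other library). In treated replicate 4, NETO1 was at 13.8 CPM (14.8 to 14.9) and ZSCAN20 at 11.8 (13.4 to 13.6).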

How the results depend on the processing

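SEZ6 kept its direction in every alternative, from -3.12 to -3.08 (log2) with each library left out, and was -2.96 with library size only. SEZ6L2 ran from -0.40 to -0.31 with each library left out and was -0.24 with library size only, a scaling that raised the median of all genes by 0.13 and gave 7151 genes higher and 4726 lower. The log2 bound of CSMD1 ran from 9.31 to 9.48, the latter without untreated replicate 4, and was 9.48 with library size only. The CSMD3 ratio ran from 7.88 to 25.1, the latter without untreated replicate 2. Per length of the longest transcript, SEZ6 was at 22.3 and 2.62, SEZ6L2 at 22.3 and 17.3 and CSMD1 at 3.25 CPM per kb. A CPM above 1 in more than 4 libraries, which removes genes seen in 1 group only, left fewer: 562 genes were differentially expressed in place of 1084, 1 sushi, 1 complement and 1 BACE1 list gene were so and higher, and 7 sushi genes rose. With no filter there were 2097, with 8 sushi and 5 complement genes higher, 1 CUB and 1 BACE1 list gene lower, and 2 partners that fell.

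With the replicate number as a block, 1085 genes were differentially expressed, 1082 of them shared; 1 of 4 libraries correlated best with its own number, and the numbers were not taken as pairs. Of 46 named genes with a test, 43 kept their side of the threshold in every alternative. CTSD passed in 5 (0.15 to 0.28), 2 of them without untreated replicate 3 or treated replicate 2, and PHF12 in 1, while ASPHD2 no longer passed with library size only (-0.15).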
